A study of Mus musculus with 11 samples.

Results

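Cardiac fibroblasts of Pw1 conditional knockout (CKO) hearts were set against control fibroblasts in the first 3 replicates of each group, which are 6 of the 11 libraries of the series. The 6 libraries were taken by the group and replicate number in their labels, and each is described by its read counts and by its TPM (transcript abundance scaled to the whole library). The CKO genotype is Pdgfra-Cre;Pw1fl/fl. The control genotype is given as wild type, Pw1fl/+ or Pw1fl/fl for each of the 3 control libraries, without saying which library has which. All 6 came from injured left ventricles at day 3 after myocardial infarction (MI), and mRNA was selected from total RNA with oligo(dT) beads. A Pdgfra-driven Cre acts in cells that express Pdgfra or descend from such cells, and the controls are not stated to carry it. The labels do not say that the replicates are separate mice, so the p-values measure the spread between these libraries, which may be technical.

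Pw1, whose gene symbol is Peg3, is an imprinted gene read from the paternal allele, and it encodes a large nuclear zinc finger protein that binds DNA. PW1 marks stem and progenitor cells in several adult tissues, heart included, and has been tied to p53-dependent cell death and to NF-kB signalling. After an infarct, resident fibroblasts divide, migrate and secrete the collagens, elastic fibre proteins and proteases that build a scar. The series asked how Pw1 acts on such matrix genes. Peg3 was not among the 1293 genes held, so its loss in the CKO libraries was not analysed here. None of the 16 fibroblast markers in the marker list was held either, and the cell type on the labels was not checked.

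The 1211 genes with a value in all 6 libraries took 633256, 636572 and 637764 reads in the control libraries and 592881, 594884 and 596412 in the CKO libraries, about 3% of the recovered totals of 20239133 to 20532496 reads. The 10 most abundant of these genes held 15.8% to 16.1% of those reads in the controls and 21.8% to 25.4% in the CKO libraries. The first principal component took 81.3% of the variance and separated the groups. CKO replicate 1 stood apart from CKO replicates 2 and 3: its counts differed from theirs with a chi-square per degree of freedom of 20.7 and 19.1, against 4.62 between replicates 2 and 3 and 2.28 to 3.88 between the controls. The mean transcript length of a library, which is the ratio of its TPM to its FPKM values and covers all its genes, was 2270, 2227 and 2199.9 nt in the controls and 1540.0, 1664 and 1675 nt in the CKO libraries. The CKO mean of 1626 ± 75.0 nt (SD, n = 3) was below the control mean of 2232 ± 35.2 nt (SD, n = 3), with p = 0.1 in an exact 2-sided permutation test, the smallest that 3 against 3 libraries allow.

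Count and TPM gave different pictures of the same libraries. Counts, scaled by TMM (a trimmed mean of ratios that centres the typical gene of those held near 0), were tested with edgeR's quasi-likelihood test, and log2(TPM + 1) was tested with limma, and a Benjamini-Hochberg adjusted p under 0.05 was called. By counts, 500 of 766 tested genes passed (65.3%), 245 higher (32.0%) and 255 lower (33.3%) in the CKO libraries. By TPM, 531 of 673 passed (78.9%), 88 higher (13.1%) and 443 lower (65.8%). The median log2 change, CKO over control, was -0.03 by counts and -0.61 by TPM. Without any test, the 3 CKO libraries were all above the 3 controls in 183 of the 766 genes by raw count (23.9%) and all below them in 384 (50.1%). By TPM they were all above in 93 of the 673 genes (13.8%) and all below in 462 (68.6%). In bulk RNA, fewer cells of a type and less RNA per cell cannot be told apart.

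Among the 668 genes tested by both measures, 87 were called higher by both and 233 lower by both. A further 105 were higher by counts and not called by TPM, and 165 were lower by TPM and not called by counts. Both calls pointed in opposite directions for 42 genes, and each of these was higher by counts and lower by TPM. No gene was lower by counts and higher by TPM. Of the 575 genes with a mean count of at least 50, the count change exceeded the TPM change by a median of 0.67 on the log2 scale, and by 0.05 to 0.79 between the 5th and 95th percentiles. All changes below are log2 of CKO over control, and a gene is said to have risen or fallen only where both measures called it so, unless 1 measure is named.

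**Figure D1:**
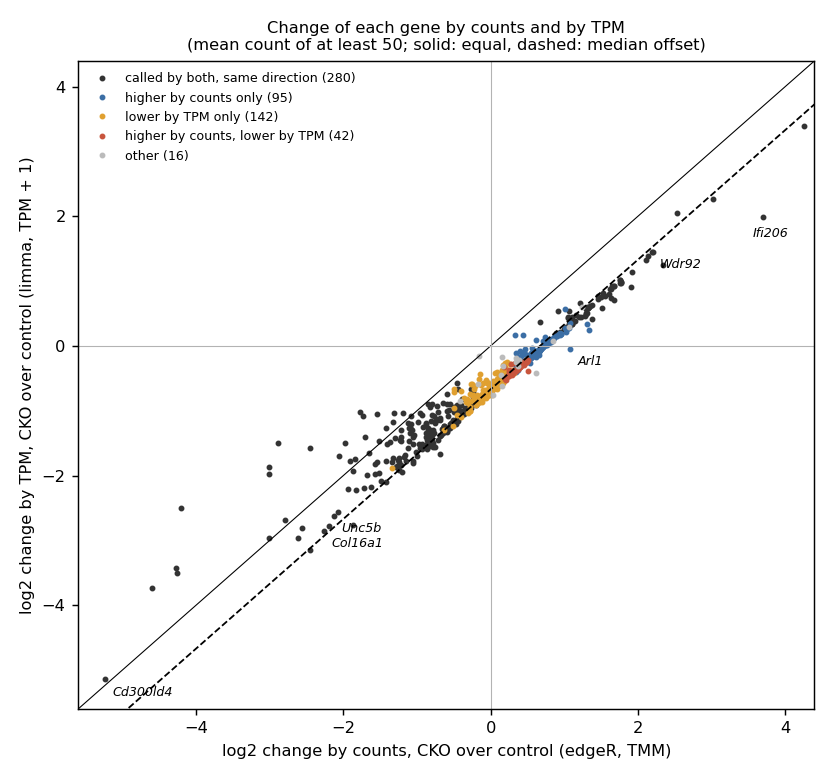
Log2 change by counts (horizontal axis, edgeR with TMM scaling) against log2 change by TPM (vertical axis, limma on log2(TPM + 1)), CKO over control, with 1 point per gene of mean count at least 50. The solid line marks equal changes and the dashed line the median offset of 0.67; most genes lie along the dashed line, and the 42 genes called in opposite directions (red) lie to the right of 0 by counts and under 0 by TPM.

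The single collagen among the tested genes fell most steeply of the matrix genes. Col16a1 (gene ID 107581, GRCm38 chromosome 4, 130047817 to 130099277), whose product sits on the surface of collagen fibrils, had read counts of 3171, 3062 and 3079 in the control libraries and 446, 573 and 583 in the CKO libraries. Its TPM was 67.1, 63.1 and 62.7 in the control libraries and 6.44, 8.83 and 9.05 in the CKO libraries. Every CKO library was far below every control library, and the CKO libraries lay close together. The change was -2.26 (SE 0.09, adjusted p = 3.67e-06) by counts and -2.85 (SE 0.13, adjusted p = 1.1e-05) by TPM. Its promoter window, 250 bases before to 50 bases after the annotated start in RefSeq (GRCm38.p6, chr4:130047590-130047889, plus strand), was drawn around a transcript start inside the gene's outer bounds given above, and it is shown because Col16a1 had the steepest fall among the named matrix genes.

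Col16a1: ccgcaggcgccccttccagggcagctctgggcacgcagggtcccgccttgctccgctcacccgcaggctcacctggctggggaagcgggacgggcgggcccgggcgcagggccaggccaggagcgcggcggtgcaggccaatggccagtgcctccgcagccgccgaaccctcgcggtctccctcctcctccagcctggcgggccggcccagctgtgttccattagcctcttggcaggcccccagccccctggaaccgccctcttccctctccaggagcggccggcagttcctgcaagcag

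All 3 matrix proteases held fell by both measures, against 33.3% of all tested genes lower by counts and 65.8% lower by TPM. They belong to the ADAMTS family of secreted metalloproteases, which cut proteoglycans and other matrix proteins. Adamts6 had counts of 353, 362 and 371 in the control libraries and 46, 108 and 86 in the CKO libraries. It changed by -1.91 (SE 0.25, adjusted p = 0.000455) by counts and -1.77 (SE 0.18, adjusted p = 0.000155) by TPM. Adamts9, known to cut versican, had counts of 857, 892 and 806 in the control libraries and 245, 305 and 291 in the CKO libraries. It changed by -1.33 (SE 0.09, adjusted p = 3.21e-05) by counts and -1.73 (SE 0.11, adjusted p = 2.47e-05) by TPM. Adamts7, known to cut cartilage oligomeric matrix protein, changed by -1.22 (SE 0.12, adjusted p = 0.000127) by counts and -1.47 (SE 0.12, adjusted p = 6.56e-05) by TPM. The control and CKO libraries did not overlap for any of the 3. Over all tested genes, every CKO library was below every control in 50.1% by raw count and 68.6% by TPM. All 3 are over 4000 nt, where 130 of 188 tested genes were lower by counts and 164 of 172 by TPM.

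The 4 elastic fibre and matrix glycoprotein genes did not move together. Ltbp4, which binds latent TGF-beta and is needed for elastic fibres, had counts of 5600, 5149 and 5342 in the control libraries and 3702, 3323 and 3523 in the CKO libraries. Its TPM was 124, 111 and 113 in the control libraries and 56.9, 54.5 and 58.6 in the CKO libraries. Ltbp4 changed by -0.33 (SE 0.08, adjusted p = 0.00914) by counts and -1.02 (SE 0.08, adjusted p = 6.11e-05) by TPM, so the TPM fall was the larger, and the count call was lost without CKO replicate 2 (adjusted p = 0.0537). Emilin1, a glycoprotein at the surface of elastic fibres, was not called by counts, 0.19 (SE 0.11, adjusted p = 0.163), and fell by TPM, -0.50 (SE 0.09, adjusted p = 0.00157). Its counts were 2878, 2744 and 2783 in the control libraries and 2922, 2363 and 2563 in the CKO libraries, with the CKO values on both sides of the controls. Mmrn2, a matrix glycoprotein of blood vessels and also an endothelial marker, changed by -0.87 (SE 0.10, adjusted p = 0.000247) by counts and -1.52 (SE 0.08, adjusted p = 1.54e-05) by TPM. Spon2, a secreted protein of the F-spondin family named here after its values were seen, rose by 0.996 by counts and 0.26 by TPM. The TPM call for Spon2 was lost without control replicates 1 or 2 or CKO replicates 1 or 3 (adjusted p 0.084 to 0.152).

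Effective lengths ran from 1957 nt for Spon2 to 8171 nt for Adamts9 among these matrix genes. A further fit removed from each library's counts its trend with effective transcript length, the length RSEM's counts and FPKM imply. Col16a1, with an effective length of 5271 nt, then changed by -1.63, and Adamts6, Adamts7 and Adamts9 changed by -1.19, -0.64 and -0.46. Ltbp4 turned to 0.30 and was not called (adjusted p = 0.0551). Emilin1, lower by TPM, was called higher at 0.56 (adjusted p = 0.00663), and Mmrn2 and Spon2 stood at -0.38 and 0.88. Col16a1, the 3 ADAMTS genes, Mmrn2 and Spon2 therefore kept their direction by counts, by TPM and with length removed. Ltbp4 and Emilin1 did not.

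Among guidance genes, Unc5b, a receptor for netrins, had counts of 1813, 1742 and 1718 in the control libraries and 244, 408 and 343 in the CKO libraries. Its TPM was 34.1, 31.9 and 31.1 in the control libraries and 3.15, 5.62 and 4.77 in the CKO libraries. The groups were wide apart in both measures, and the change was -2.13 (SE 0.15, adjusted p = 3.47e-05) by counts and -2.62 (SE 0.17, adjusted p = 3.33e-05) by TPM. Unc5a, a second netrin receptor, was too low for the TPM test and changed by 1.39 (SE 0.24, adjusted p = 0.00167) by counts. Sema3d, a secreted semaphorin, was likewise tested by counts only and changed by -0.95 (SE 0.28, adjusted p = 0.0202), a call lost without control replicates 1 or 2 or CKO replicates 2 or 3 (adjusted p 0.0535 to 0.0816). The receptors Unc5a and Unc5b thus went in opposite directions by counts. The Unc5a counts were low, 22, 21 and 17 in the control libraries and 49, 35 and 46 in the CKO libraries. Unc5a overlaps Hk3 in the annotation, and the part of Hk3 reads in these counts was not tested.

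**Figure D2:**
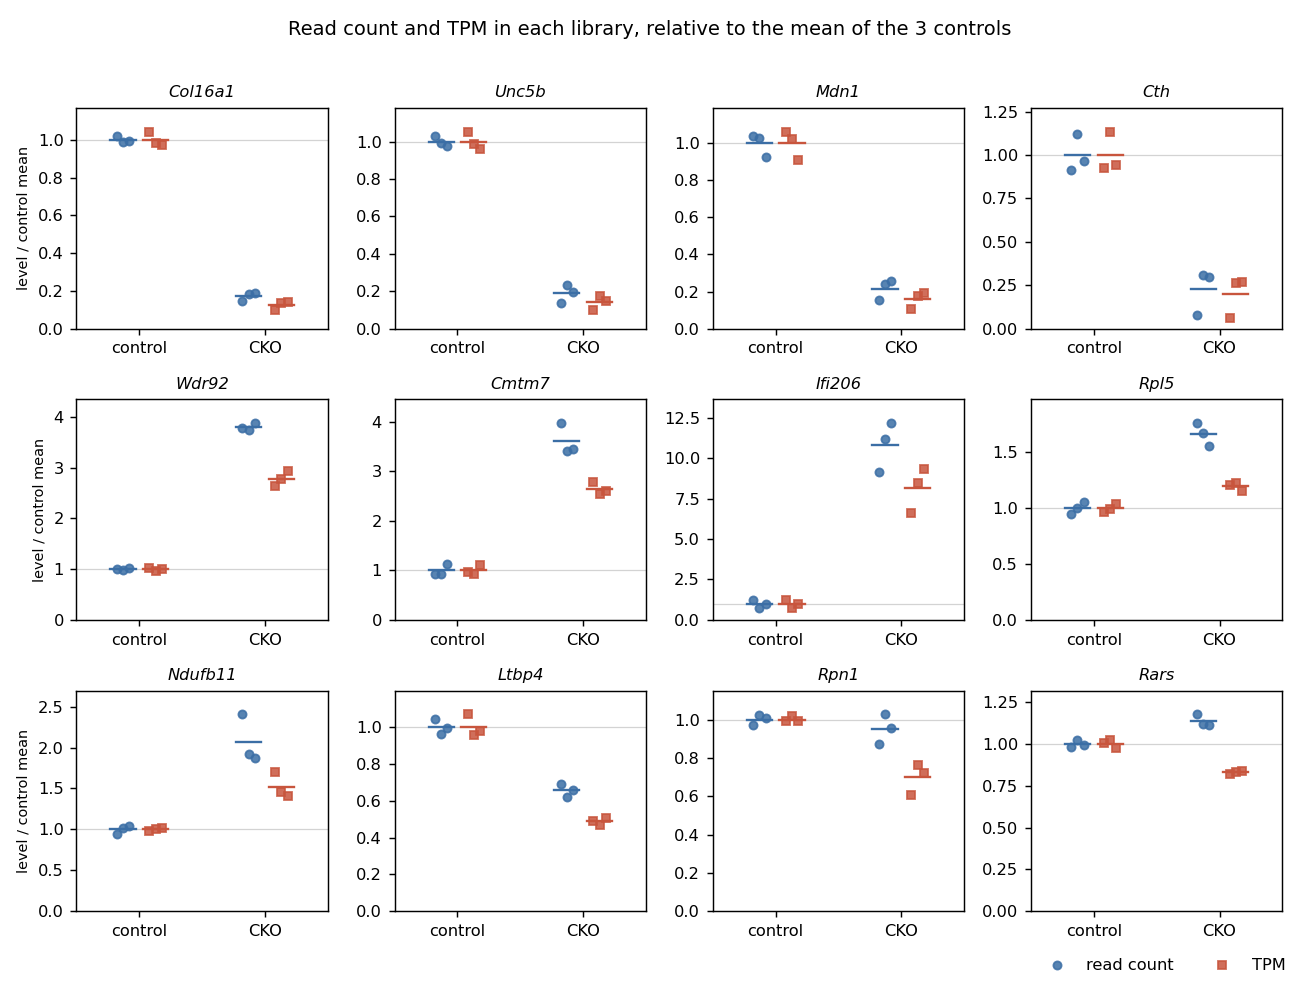
Read count (blue circles) and TPM (red squares) of 12 genes in each of the 3 control and 3 CKO libraries, each divided by the mean of the 3 controls (vertical axis, linear, from 0); bars mark group means. Col16a1, Unc5b, Mdn1 and Cth fall and Wdr92, Cmtm7 and Ifi206 rise in both measures, while for Rars the CKO counts lie above and the CKO TPM below the controls.

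The other largest falls were in genes of unrelated roles. Mdn1, which encodes a giant ATPase of large ribosomal subunit assembly, had counts of 2292, 2267 and 2046 in the control libraries and 337, 524 and 567 in the CKO libraries. It changed by -1.94 (SE 0.16, adjusted p = 6.66e-05) by counts and -2.21 (SE 0.16, adjusted p = 4.51e-05) by TPM. With an effective length of 18274 nt it is among the longest transcripts held, and its change was -0.58 once length was removed. Cth, the enzyme that makes cysteine from cystathionine, had counts of 130, 159 and 137 in the control libraries and 11, 44 and 42 in the CKO libraries. Its TPM was 8.11, 9.96 and 8.28 in the control libraries and 0.530, 2.31 and 2.35 in the CKO libraries. CKO replicate 1 was the lowest for Cth, and the change was -1.86 (SE 0.38, adjusted p = 0.00386) by counts and -1.92 (SE 0.30, adjusted p = 0.00101) by TPM. Mfap1b, a copy of a spliceosome component gene, changed by -2.20 by counts and -2.78 by TPM.

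Cd300ld4, of the CD300 family of myeloid receptors, had counts of 445, 471 and 562 in the control libraries and 8, 10 and 14 in the CKO libraries. Its TPM was 62.1, 64.4 and 76.0 in the control libraries and 0.610, 0.800 and 1.47 in the CKO libraries. The change of -5.24 (SE 0.19, adjusted p = 1.8e-06) by counts and -5.15 (SE 0.17, adjusted p = 2.57e-06) by TPM was the steepest among the named genes. Zfp967, a zinc finger gene, had counts of 151, 200 and 58 in the control libraries and 4, 14 and 0 in the CKO libraries, with a wide spread among the controls, and changed by -4.21 (SE 0.79, adjusted p = 0.00266) by counts and -2.49 (SE 0.31, adjusted p = 0.000343) by TPM. Evi2 had counts of 137, 249 and 67 in the control libraries and 14, 0 and 32 in the CKO libraries. It changed by -3.01 (SE 0.83, adjusted p = 0.0145) by counts and -1.88 (SE 0.37, adjusted p = 0.00309) by TPM; its count call was lost without control replicate 2 (adjusted p = 0.063). Mfap1b, Zfp967 and Cd300ld4 have near-identical relatives in the genome, and Cd300ld4 and Evi2 overlap other genes in the annotation (Cd300c2 and Cd300ld2; Nf1, Evi2a and Evi2b), so their counts depend on how shared reads were divided.

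The largest rises began with Ifi206, an interferon-inducible gene of the Ifi200 family. Ifi206 had counts of 28, 17 and 22 in the control libraries and 205, 250 and 272 in the CKO libraries. Its TPM was 0.900, 0.540 and 0.700 in the control libraries and 4.72, 6.04 and 6.65 in the CKO libraries. It changed by 3.71 (SE 0.20, adjusted p = 1.12e-05) by counts and 1.98 (SE 0.14, adjusted p = 4.02e-05) by TPM, and the smaller TPM change is on the log2(TPM + 1) scale, which understates low genes. Wdr92, which encodes a factor for the assembly of axonemal dyneins, had counts of 1577, 1536 and 1593 in the control libraries and 5927, 5876 and 6090 in the CKO libraries. Its TPM was 51.0, 48.3 and 49.5 in the control libraries and 131, 138 and 145 in the CKO libraries. The libraries of each group lay close together, and Wdr92 changed by 2.21 (SE 0.06, adjusted p = 1.27e-06) by counts and 1.46 (SE 0.08, adjusted p = 1.54e-05) by TPM. With an effective length of 3449 nt it is not a short transcript, and its change with length removed was 2.55.

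Cmtm7, a membrane protein of the MARVEL domain family, had counts of 457, 455 and 551 in the control libraries and 1940, 1660 and 1680 in the CKO libraries. It changed by 2.14 (SE 0.12, adjusted p = 1.48e-05) by counts and 1.39 (SE 0.10, adjusted p = 4.02e-05) by TPM. Eif4ebp3, which binds eIF4E and holds back cap-dependent translation, had counts of 225, 193 and 199 in the control libraries and 861, 605 and 722 in the CKO libraries. It changed by 2.11 (SE 0.17, adjusted p = 5.09e-05) by counts and 1.32 (SE 0.13, adjusted p = 0.000136) by TPM. In both genes every CKO library was above every control. Rpl37rt, a retrocopy of a ribosomal protein gene, rose by 2.19 by counts and 1.45 by TPM, and D8Ertd738e rose by 1.76 by counts and 1.01 by TPM. Plac9b rose by 1.77 by counts and 0.99 by TPM and Hbb-bs, a beta-globin of red cells, by 1.75 by counts and 0.97 by TPM. D8Ertd738e overlaps Mri1 in the annotation, and Rpl37rt, Plac9b, Hbb-bs and Ifi206 have close copies that can share reads. Effective lengths were 1107 nt for Cmtm7, 1123.5 for Eif4ebp3, 641 for Rpl37rt, 632 for D8Ertd738e, 970 for Plac9b and 602 for Hbb-bs. With length removed these changes shrank to 1.52, 1.49, 1.34, 0.92, 1.07 and 0.91 in that order, and all stayed called. Ifi206, at 3365.5 nt, was then at 4.02. Of genes under 1000 nt, 39 of 54 were higher by counts. Just outside the 8 largest rises was Gadd45gip1, with a smaller change of 0.96 against 0.97 for the last one inside. Just outside the 8 largest falls was Adamts6, at -1.77 against -1.86.

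Genes of mitochondrial respiration and of the mitochondrial ribosome were called higher in the CKO libraries by counts, and all but Mrpl10 also by TPM. Both respiratory chain genes tested rose, against 32.0% of all tested genes higher by counts and 13.1% by TPM. Ndufb11, an accessory subunit of complex I, had counts of 685, 730 and 750 in the control libraries and 1735, 1390 and 1347 in the CKO libraries, with CKO replicate 1 the highest. Its TPM was 94.4, 97.5 and 98.2 in the control libraries and 164, 140.5 and 137 in the CKO libraries, and it changed by 1.33 (SE 0.13, adjusted p = 0.000127) by counts and 0.59 (SE 0.09, adjusted p = 0.000981) by TPM. Sco2, which delivers copper to cytochrome c oxidase, changed by 1.55 (SE 0.16, adjusted p = 0.000186) by counts and 0.77 (SE 0.13, adjusted p = 0.00114) by TPM. Sco2 overlaps Ncaph2 and Tymp, and Ndufb11 overlaps Rbm10, in the annotation.

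All 4 mitochondrial ribosome genes rose by counts, and 3 of the 4 rose by TPM, against 32.0% and 13.1% of all tested genes. Mrpl30, a large-subunit protein, changed by 1.45 (SE 0.16, adjusted p = 0.000217) by counts and 0.78 (SE 0.12, adjusted p = 0.000854) by TPM. Gadd45gip1, which is also a large-subunit protein, changed by 1.77 (SE 0.17, adjusted p = 0.000128) by counts and 0.96 (SE 0.12, adjusted p = 0.000363) by TPM. Mrpl41, named after its values were seen, changed by 1.08 by counts and 0.32 by TPM, and its TPM call was lost without control replicates 1, 2 or 3 or CKO replicate 2 (adjusted p 0.0543 to 0.0965). Mrpl10 was higher by counts, 0.49 (SE 0.11, adjusted p = 0.00526), and lower by TPM, -0.21 (SE 0.08, adjusted p = 0.0462). The TPM call of Mrpl10 was lost without control replicates 1, 2 or 3 or CKO replicates 2 or 3 (adjusted p 0.0854 to 0.14). Their effective lengths were 726 nt for Mrpl30, 810 nt for Ndufb11, 1199 nt for Sco2, 1610 nt for Mrpl10, 1719 nt for Gadd45gip1 and 2422 nt for Mrpl41. With length removed, Ndufb11, Sco2, Mrpl30, Gadd45gip1 and Mrpl41 were at 0.53, 0.98, 0.62, 1.51 and 1.17. The count call of Mrpl10 was lost with length removed, 0.16 (adjusted p = 0.158), and with library totals, 0.21 (adjusted p = 0.0751).

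Both ribosomal protein genes tested, Rpl37rt and Rpl5, rose, against 32.0% of all tested genes higher by counts and 13.1% by TPM. Rpl5, a large-subunit ribosomal protein that binds 5S rRNA, had counts of 10073, 10624 and 11263 in the control libraries and 18767, 17799 and 16551 in the CKO libraries. Its TPM was 1024, 1052 and 1098 in the control libraries and 1281, 1292 and 1219 in the CKO libraries, so the groups did not overlap in either measure. Rpl5 changed by 1.02 (SE 0.08, adjusted p = 5.02e-05) by counts and 0.26 (SE 0.07, adjusted p = 0.0164) by TPM, and the TPM call was lost without control replicates 1 or 2 (adjusted p 0.0542 to 0.0654). Of the 3 genes of translation initiation and its repressors, Eif4ebp3 rose. Eif2b3, a subunit of the exchange factor for eIF2, and Eif3j2 were not called by counts (0.23 and 0.14) and fell by TPM (-0.48 and -0.58).

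Aminoacyl-tRNA synthetases, which load amino acids onto tRNAs, were lower by TPM in all 6 of 6 tested genes and lower by counts in 4 of 6, against 65.8% and 33.3% of all tested genes. Their median change was -0.73 by counts and -1.32 by TPM, against -0.03 and -0.61 over all tested genes. Eprs, which loads glutamate and proline, had counts of 5630, 5660 and 5406 in the control libraries and 2270, 2594 and 2654 in the CKO libraries. It changed by -0.87 (SE 0.06, adjusted p = 3.42e-05) by counts and -1.34 (SE 0.11, adjusted p = 6.37e-05) by TPM. Iars and Lars, the cytosolic isoleucine and leucine enzymes, and Lars2, the mitochondrial leucine enzyme, were named after their values were seen. Iars changed by -1.05 by counts and -1.77 by TPM, Lars by -0.60 by counts and -1.29 by TPM and Lars2 by -1.11 by counts and -1.47 by TPM. Yars, for tyrosine, was not called by counts (0.00461) and fell by TPM (-0.72). With length removed, Eprs, Iars, Lars, Lars2 and Yars were at -0.30, -0.50, -0.12, -0.64 and 0.0943, and the count call of Lars was lost. Rars, for arginine, went in opposite directions in the 2 measures and is described with the other such genes.

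**Figure D3:**
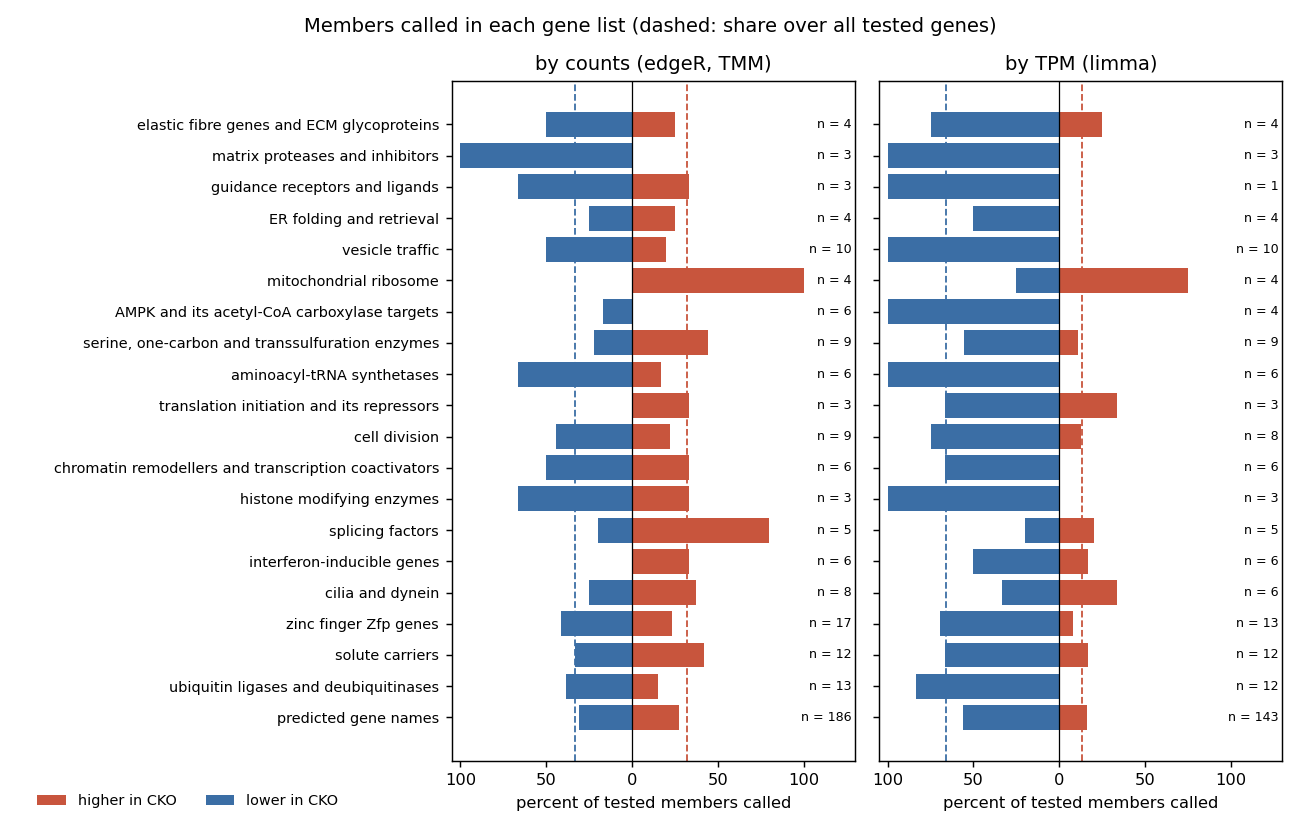
Percent of the tested members of each gene list called higher (red, to the right) and lower (blue, to the left) in the CKO libraries, by counts (left panel) and by TPM (right panel), with the number tested; dashed lines mark the shares over all tested genes. The 6 aminoacyl-tRNA synthetases and 10 vesicle traffic genes were all called lower by TPM, and the 4 mitochondrial ribosome genes were all called higher by counts.

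Vesicle traffic genes were lower by TPM and mixed by counts. Of 10 vesicle traffic genes, 10 fell by TPM, while by counts 5 fell and 2 were higher. Over all tested genes 65.8% were lower by TPM, and 33.3% were lower and 32.0% higher by counts. With length removed, 5 of the 10 were higher and 3 lower, against 37.3% higher and 23.2% lower over all genes tested that way. Rab31, a GTPase of the trans-Golgi and endosomes, changed by -0.44 (SE 0.09, adjusted p = 0.00308) by counts and -1.16 (SE 0.14, adjusted p = 0.000304) by TPM. With length removed the Rab31 count call was lost, -0.0849 (adjusted p = 0.329). Stx12, an endosomal SNARE, was not called by counts, 0.18, and fell by TPM, -0.55. Vps37c, of the ESCRT-I complex, was higher by counts, 0.27, and lower by TPM, -0.28. Scaled by library totals its count change was 0.002 (adjusted p = 0.982), so the count call rests on TMM. The TPM call of Vps37c was lost without control replicates 1, 2 or 3 (adjusted p 0.101 to 0.111), and without CKO replicate 1 its change was -0.18.

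In the endoplasmic reticulum, Txndc5, a disulfide isomerase known to promote fibrosis in cardiac fibroblasts, had counts of 5930, 5766 and 6117 in the control libraries and 3978, 4310 and 4556 in the CKO libraries. Its TPM was 249, 236 and 248 in the control libraries and 115, 133 and 142 in the CKO libraries. The count change was -0.19 (SE 0.06, adjusted p = 0.0177) and the TPM change was -0.91 (SE 0.10, adjusted p = 0.000192). The count call for Txndc5 was lost without control replicates 1 or 3 or CKO replicate 2 (adjusted p 0.0783 to 0.0995), and with length removed, -0.0771 (adjusted p = 0.247). Kdelr3, a receptor that returns resident proteins to this compartment, was higher by counts, 0.95 (SE 0.13, adjusted p = 0.000678), and not called by TPM, 0.20 (SE 0.10, adjusted p = 0.104). Dnajc3, a co-chaperone, was not called by counts, 0.0747, and fell by TPM, -0.64. With length removed Dnajc3 was called higher, 0.71 (adjusted p = 0.00028), and with library totals it was called lower, -0.20 (adjusted p = 0.029). Txndc5 overlaps Bmp6 and Kdelr3 overlaps Ddx17 in the annotation. Of 4 tested genes of folding and retrieval in this compartment, 2 were lower by TPM, and 1 was higher and 1 lower by counts. The shares over all tested genes were 65.8% lower by TPM, and 32.0% higher and 33.3% lower by counts.

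The most abundant genes, by TPM, that were called in opposite directions include 2 of the protein translocation machinery of the endoplasmic reticulum. Rpn1, a subunit of the oligosaccharyltransferase, had counts of 4679, 4935 and 4860 in the control libraries and 4211, 4953 and 4617 in the CKO libraries. Its TPM was 142, 146 and 142 in the control libraries and 87.4, 109.8 and 104 in the CKO libraries. The raw counts of the groups overlapped and the TPM did not. Rpn1 changed by 0.21 (SE 0.06, adjusted p = 0.0156) by counts and -0.52 (SE 0.10, adjusted p = 0.00286) by TPM, and the count call was lost without control replicate 1 (adjusted p = 0.0619). Ssr1, of the translocon-associated complex, changed by 0.20 (SE 0.07, adjusted p = 0.0339) by counts and -0.51 (SE 0.12, adjusted p = 0.00651) by TPM, and its count call was lost without control replicates 1, 2 or 3 or CKO replicates 2 or 3 (adjusted p 0.0515 to 0.0828). TMM placed the effective size of the CKO libraries at 0.0264 to 0.0280 of their totals, against 0.0327 to 0.0335 in the controls, so equal raw counts come out higher in the CKO libraries. Scaled by library totals instead, Rpn1 was at -0.063 (adjusted p = 0.439) and Ssr1 at -0.068 (adjusted p = 0.471), and neither was called. With length removed both were called higher, Rpn1 at 0.62 (adjusted p = 0.000186) and Ssr1 at 0.82 (adjusted p = 4.2e-05). The direction of their count change therefore rests on the scaling.

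Rars had counts of 4191, 4384 and 4243 in the control libraries and 5025, 4792 and 4760 in the CKO libraries. Its TPM was 220.0, 224 and 214 in the control libraries and 179.9, 183 and 184 in the CKO libraries. Here neither measure overlapped between the groups: every CKO count was above and every CKO TPM below the controls. The change was 0.47 (SE 0.07, adjusted p = 0.000678) by counts and -0.26 (SE 0.07, adjusted p = 0.0111) by TPM. Psat1, an enzyme of serine synthesis, changed by 0.34 by counts and -0.39 by TPM, and by 0.0691 (adjusted p = 0.381) when counts were scaled by library totals. Osbpl9, an oxysterol-binding protein, changed by 0.25 by counts and -0.37 by TPM and was at -0.027 when counts were scaled by library totals. Fermt3, which activates integrins in blood cells and overlaps Trpt1, changed by 0.40 by counts and -0.33 by TPM; its TPM call was lost without control replicates 1, 2 or 3 (adjusted p 0.0593 to 0.0751), and its count call with library totals, 0.13 (adjusted p = 0.147). FPKM, which lacks the scaling of TPM to the transcripts of the library, gave positive values for Rars (0.19), Psat1 (0.067), Osbpl9 (0.079) and Fermt3 (0.12).

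Ly6c2, also called in opposite directions, is a surface marker of inflammatory monocytes. It had counts of 1501, 1512 and 1518 in the control libraries and 1985, 1514 and 1572 in the CKO libraries, with CKO replicate 1 above all others and replicate 2 within the controls. Ly6c2 changed by 0.45 (SE 0.13, adjusted p = 0.0174) by counts and -0.29 (SE 0.10, adjusted p = 0.0301) by TPM. The count call was lost without control replicates 1, 2 or 3 (adjusted p 0.0506 to 0.056). The TPM call was lost without control replicates 1, 2 or 3 or CKO replicates 2 or 3 (adjusted p 0.0739 to 0.0936). Its change was 0.16 by FPKM and -0.36 by counts with length removed, and with library totals its count call was lost, 0.17 (adjusted p = 0.209), so no direction held across the scalings.

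Of the 8 lists of cell type markers, 3 had a member among the genes held. Macrophage and monocyte genes were Ly6c2 and Cd300ld4, described above. Mmrn2 was the endothelial gene and fell. The erythroid gene Hbb-bs had counts of 63, 72 and 77 in the control libraries and 219, 194 and 175 in the CKO libraries, and rose. Hbb-bt, a second beta-globin, had counts of 12, 0 and 4 in the control libraries and 33, 11 and 20 in the CKO libraries, with CKO replicate 2 within the controls. Hbb-bt changed by 2.26 (SE 0.83, adjusted p = 0.0455) by counts and 1.07 (SE 0.45, adjusted p = 0.0618) by TPM. Its count call was lost without control replicates 2 or 3 or CKO replicates 1 or 3 (adjusted p 0.0853 to 0.134), and without control replicate 1 the change was 3.63. It was also lost with length removed, 1.41 (adjusted p = 0.182), and with library totals, 1.98 (adjusted p = 0.0671). The defining genes of macrophages, neutrophils, cardiomyocytes, lymphocytes and mural cells were not held, and the part of other cells in the results above was not tested.

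Interferon-inducible genes did not move as a group. Of 6 tested, 2 were higher and 0 lower by counts, and 1 was higher and 3 lower by TPM, against 32.0% and 33.3% of all tested genes by counts and 13.1% and 65.8% by TPM. Isg15, a ubiquitin-like protein induced by type I interferon, was not called by counts, -0.0279 (adjusted p = 0.766), and fell by TPM, -0.76. Counts called Isg15 lower with library totals, -0.30 (adjusted p = 0.0104), and with length removed, -0.86 (adjusted p = 0.00028). Gbp6, a guanylate-binding protein, was not called by counts, -0.0188, and fell by TPM, -0.60. Counts called Gbp6 lower with library totals, -0.29 (adjusted p = 0.014), and higher with length removed, 0.53 (adjusted p = 0.00303). Mndal, of the same family as Ifi206, was higher by counts, 0.34, not called by TPM, -0.31, and lost its count call without control replicate 1 (adjusted p = 0.0552), with length removed, 0.26 (adjusted p = 0.0604), and with library totals, 0.0704 (adjusted p = 0.578). Ifi206 was the sole member higher by both measures. Tnfaip8, a regulator of cell death induced by NF-kB, rose by 1.05 by counts and 0.43 by TPM.

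In metabolism, the enzymes of serine, one-carbon and cysteine synthesis were split. Of 9 tested, 4 were higher and 2 lower by counts, and 1 was higher and 5 lower by TPM. The TPM calls were near the shares over all tested genes (13.1% higher, 65.8% lower). By counts those shares were 32.0% higher and 33.3% lower. Cth fell by both measures. Mthfs, which recycles a folate form and was named after its values were seen, rose by 1.46 by counts and 0.73 by TPM. Mthfsl, a related gene, was higher by counts, 0.47, and lower by TPM, -0.25, with the TPM call lost without control replicates 1, 2 or 3 or CKO replicate 2 (adjusted p 0.0558 to 0.0944) and the count call lost with length removed, 0.14 (adjusted p = 0.139). Shmt2, the mitochondrial serine hydroxymethyltransferase, was not called by counts, 0.17, and fell by TPM, -0.56. Shmt2 overlaps Ndufa4l2 and Mthfsl overlaps Gm10634 in the annotation.

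Genes of AMPK, the energy-sensing kinase, and of acetyl-CoA carboxylase, which it inhibits, were called lower by TPM in 4 of 4 tested and by counts in 1 of 6, against 65.8% and 33.3% of all tested genes. With length removed, 2 of 5 were higher and 0 lower, against 37.3% higher and 23.2% lower over all genes tested that way. Acaca, the carboxylase of fatty acid synthesis, changed by -0.82 (SE 0.08, adjusted p = 0.000139) by counts and -1.36 (SE 0.09, adjusted p = 2.92e-05) by TPM. Its transcript is long, 9201 nt, and its count change was 0.12 (adjusted p = 0.332) with length removed. Prkaa1, a catalytic subunit, was not called by counts, 0.0463, fell by TPM, -0.64, and was called higher with length removed, 0.64 (adjusted p = 0.000192). Prkab2, a regulatory subunit, was not called by counts, -0.21, fell by TPM, -0.81, and was likewise higher with length removed, 0.41 (adjusted p = 0.00652). Slc6a8, the creatine transporter, had counts of 13424, 12994 and 13649 in the control libraries and 21846, 18319 and 19508 in the CKO libraries. Its count change was 0.86 (SE 0.09, adjusted p = 0.000213) and its TPM change was 0.12 (SE 0.08, adjusted p = 0.201), which was not called. Slc35e4 rose by 1.10 by counts and 0.35 by TPM. Slc39a6, a zinc transporter, was not called by counts, -0.0198, and fell by TPM, -0.74. Of 12 solute carriers, 5 were higher and 4 lower by counts, and 2 were higher and 8 lower by TPM, close to the shares of all tested genes (13.1% and 65.8% by TPM). With length removed 8 were higher and 2 lower, against 37.3% higher and 23.2% lower over all genes tested that way.

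Cell division genes had 4 of 9 lower and 2 higher by counts, and 6 of 8 lower and 1 higher by TPM, against the shares over all tested genes (33.3% and 32.0% by counts, 65.8% and 13.1% by TPM). Cenpf, a kinetochore protein, and Cdc20, which switches on the anaphase-promoting complex, were named after their values were seen. Cenpf changed by -2.45 (SE 0.17, adjusted p = 3.21e-05) by counts and -1.57 (SE 0.08, adjusted p = 1.54e-05) by TPM, and Cdc20 by -0.47 (SE 0.09, adjusted p = 0.00289) by counts and -1.15 (SE 0.07, adjusted p = 2.77e-05) by TPM. Tubg1, the gamma-tubulin that nucleates microtubules, changed by 1.08 (SE 0.12, adjusted p = 0.000218) by counts and 0.33 (SE 0.11, adjusted p = 0.0255) by TPM, and its TPM call was lost without control replicates 1, 2 or 3 or CKO replicate 3 (adjusted p 0.0654 to 0.0758). Cdk20 was higher by counts, 0.76, and not called by TPM, 0.0396. Cdk9, the kinase of transcription elongation, was not called by counts, -0.11, and fell by TPM, -0.86.

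Of 6 chromatin remodellers and coactivators, 3 were lower and 2 higher by counts, and 4 were lower by TPM, against the shares over all tested genes (33.3% lower and 32.0% higher by counts, 65.8% lower by TPM). All 3 histone modifying enzymes were lower by TPM, and by counts 2 were lower and 1 higher. Chd4, the ATPase of the NuRD complex, changed by -0.87 (SE 0.08, adjusted p = 0.000121) by counts and -1.59 (SE 0.13, adjusted p = 7.15e-05) by TPM. Nsd2, an H3K36 methyltransferase, changed by -1.05 (SE 0.08, adjusted p = 5.02e-05) by counts and -1.81 (SE 0.13, adjusted p = 4.51e-05) by TPM, and Kdm3a, an H3K9 demethylase, by -0.59 (SE 0.10, adjusted p = 0.00145) by counts and -0.998 (SE 0.14, adjusted p = 0.000667) by TPM. Trrap, the scaffold of histone acetyltransferase complexes named after its values were seen, changed by -1.71 by counts and -2.19 by TPM. With length removed, Chd4, Nsd2, Kdm3a and Trrap were at -0.11, -0.27, -0.12 and -0.57, and the count calls of Chd4 and Kdm3a were lost. Taf9 and Med21, parts of the transcription machinery, were higher by counts, 0.55 and 0.37, and not called by TPM, -0.19 and -0.36. With length removed they were at -0.0115 and -0.46, and the count call of Med21 was lost without control replicates 1, 2 or 3 or CKO replicates 2 or 3 (adjusted p 0.0681 to 0.0868). Prmt9, an arginine methyltransferase, was higher by counts, 0.49, and lower by TPM, -0.22, with the TPM call lost without control replicates 2 or 3 or CKO replicates 2 or 3 (adjusted p 0.0828 to 0.136) and the count call lost with library totals, 0.22 (adjusted p = 0.0725).

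Of 5 splicing factors, 4 were higher and 1 lower by counts, and 1 was higher and 1 lower by TPM, against 32.0% higher by counts and 65.8% lower by TPM over all tested genes. With length removed 2 were higher and 0 lower, against 37.3% higher and 23.2% lower over all genes tested that way. Snrpd2, a core protein of the spliceosome's Sm ring, changed by 1.53 (SE 0.13, adjusted p = 5.83e-05) by counts and 0.81 (SE 0.10, adjusted p = 0.000377) by TPM. Sf3b4, of the U2 particle, was higher by counts, 0.89, and not called by TPM, 0.15. U2af1, which reads the 3' splice site, was higher by counts, 0.69, not called by TPM, -0.0479, and at -0.0683 with length removed. Sf3b3, also of the U2 particle and named after its values were seen, changed by -0.67 by counts and -1.38 by TPM, and its count call was lost with length removed, -0.13 (adjusted p = 0.0852). Nup107, a scaffold protein of the nuclear pore, changed by -1.24 (SE 0.19, adjusted p = 0.00106) by counts and -1.80 (SE 0.21, adjusted p = 0.000303) by TPM. Xpo1, the main nuclear export receptor, was not called by counts, -0.17, and fell by TPM, -0.86.

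Cytoskeletal and cilium genes were few. Dynlt1c, a dynein light chain, had counts of 521, 513 and 597 in the control libraries and 1657, 1242 and 1239 in the CKO libraries. It changed by 1.63 (SE 0.16, adjusted p = 0.000121) by counts and 0.87 (SE 0.11, adjusted p = 0.000432) by TPM. Its near-identical copies Dynlt1a and Dynlt1f, named after their values were seen, were at -1.54 and 0.15 by counts, and Dynlt1f was not called. The count call of Dynlt1a was lost without CKO replicate 3 (adjusted p = 0.054), and with length removed, -0.92 (adjusted p = 0.111). Reads of these copies may be divided between them. Cdc42ep2, an effector of the GTPase Cdc42, rose by 1.38 by counts and 0.63 by TPM, while the related Cdc42ep1 was not called by counts, -0.21, and fell by TPM, -0.81. Synpo and Ahnak2, of the actin and membrane cytoskeleton, changed by -0.50 by counts and -1.03 by TPM and by -0.40 by counts and -1.08 by TPM. With length removed Synpo was at 0.14 and Ahnak2 at 0.69.

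Among regulatory genes, 7 of 17 Zfp zinc finger genes were lower and 4 higher by counts, and 9 of 13 were lower and 1 higher by TPM, close to the shares over all tested genes (33.3% and 32.0% by counts, 65.8% and 13.1% by TPM). Zfp984 rose by 1.22 by counts and 0.66 by TPM. Zfp513 was higher by counts, 0.71, and not called by TPM, 0.0733, and Zfp729b was not called by counts, -0.0506, and fell by TPM, -0.70. Of 13 ubiquitin ligases and deubiquitinases, 5 were lower and 2 higher by counts, and 10 of 12 were lower by TPM, against those same shares. Fbxw11, which picks out beta-catenin and I-kappa-B for degradation, changed by -0.65 (SE 0.17, adjusted p = 0.0121) by counts and -1.35 (SE 0.22, adjusted p = 0.00116) by TPM. With length removed the Fbxw11 count call was lost, -0.13 (adjusted p = 0.466). Otub1, a deubiquitinase, was higher by counts, 0.72, and not called by TPM, -0.0134. Dio3, an imprinted gene whose product inactivates thyroid hormone, had counts of 23, 20 and 25 in the control libraries and 13, 3 and 11 in the CKO libraries, with all CKO libraries below the controls. The Dio3 change was -1.04 (SE 0.46, adjusted p = 0.084) by counts scaled by TMM, which was not called. It was called by TPM, -0.76 (SE 0.13, adjusted p = 0.00173). Counts also called Dio3 lower with library totals, -1.31 (adjusted p = 0.0358), and with length removed, -1.22 (adjusted p = 0.0472).

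Changes followed transcript length in both measures. Of genes under 1000 nt, 39 of 54 were higher and 7 lower by counts, with a median change of 1.25. From 1000 to 2000 nt, 109 of 195 were higher and 23 lower, with a median of 0.56. From 2000 to 4000 nt, 83 of 297 were higher and 86 lower, with a median of -0.01. Over 4000 nt, 11 of 188 were higher and 130 lower, with a median of -0.63.

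By TPM the same order held at a lower level, with medians of 0.36, -0.12, -0.61 and -1.14 in the 4 classes. Over 4000 nt, 164 of 172 genes were lower and 1 higher by TPM, and under 1000 nt 28 of 59 were higher and 18 lower. With the length trend removed from the counts, 444 of 734 genes passed (60.5%), with 274 higher (37.3%) and 170 lower (23.2%). Of the 488 count calls that could be refitted this way, 342 kept their direction and call, 123 lost the call and 23 were called the other way. The mean transcript length of the libraries moved with the groups, as given above, and a technical and a genotype source of this trend cannot be told apart in these 6 libraries.

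**Figure D4:**
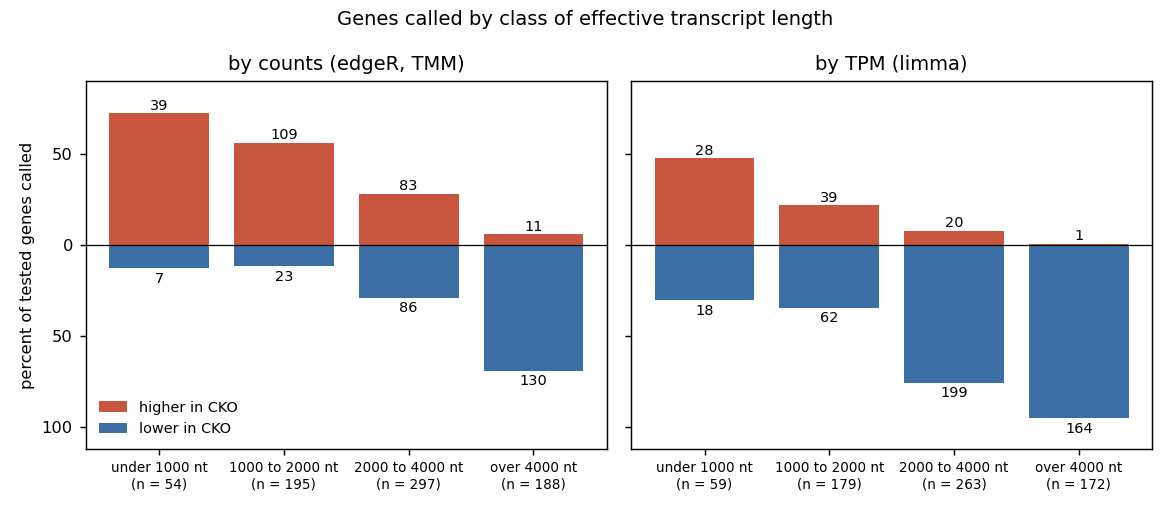
Percent of tested genes called higher (red, upward) and lower (blue, downward) in the CKO libraries, by class of effective transcript length, for counts (left) and TPM (right), with the number of genes on each bar. By counts the share called higher falls from class to class, from 39 of 54 to 11 of 188, and the share called lower is small in both classes under 2000 nt (7 of 54 and 23 of 195) and reaches 130 of 188 over 4000 nt.

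A second kind of length change was within genes. RSEM divides a gene's reads among its isoforms, and the effective length that counts and FPKM imply is the average over that mix. Of 303 genes with FPKM of at least 5 in all 6 libraries, the shortest control length exceeded the longest CKO length by over 10% in 28, the shortest CKO length exceeded the longest control length by as much in 2, and 273 did neither. The median ratio of the CKO to the control length was 1.00. That value follows from the method, since each library's total was set by its median ratio of count to FPKM. The lengths are therefore relative to the typical gene, and a shift shared by most genes would not show. The genes below were chosen after their lengths were seen, with no test.

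Txndc11, a thioredoxin-like protein of the endoplasmic reticulum, had an effective length of 2951, 2942 and 2842 nt in the control and 1716, 1809.6 and 1733 nt in the CKO libraries. Its counts, 585, 581 and 637 in the control libraries and 389, 456 and 485 in the CKO libraries, were all lower in the CKO libraries. It was not called by either measure, at -0.16 by counts and -0.15 by TPM, so for Txndc11 the usual offset between the measures was absent. Gbf1, an exchange factor for Arf GTPases at the Golgi, had an effective length of 5687, 5494 and 5544 nt in the control and 4013, 4102 and 4094 nt in the CKO libraries, and Rusc2 of 4917, 4741 and 4723 nt in the control and 3457, 3494 and 3515 nt in the CKO libraries. Eprs was also among the shorter ones, with 4916, 4926 and 4904 nt in the control and 4132, 4145 and 4136 nt in the CKO libraries. Arl1, a GTPase of the trans-Golgi, was 1 of the 2 longer genes, with 1533, 1424 and 1460.3 nt in the control and 1934, 1933 and 1933 nt in the CKO libraries. Arl1 was higher by counts, 1.08 (SE 0.05, adjusted p = 6.99e-06), and not called by TPM, -0.0418 (SE 0.10, adjusted p = 0.698). Rab28 was the other, with 1310.3, 1302 and 1349.7 nt in the control and 1571, 1650.4 and 1652 nt in the CKO libraries, and changed by -0.69 by counts and -1.66 by TPM. These lengths are RSEM's estimates, and the isoforms themselves were not analysed here. Txndc11 overlaps Snn, Rusc2 overlaps Fam166b and Arl1 overlaps Gm4925 in the annotation. The part of shared reads in their lengths was not tested.

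**Figure D5:**
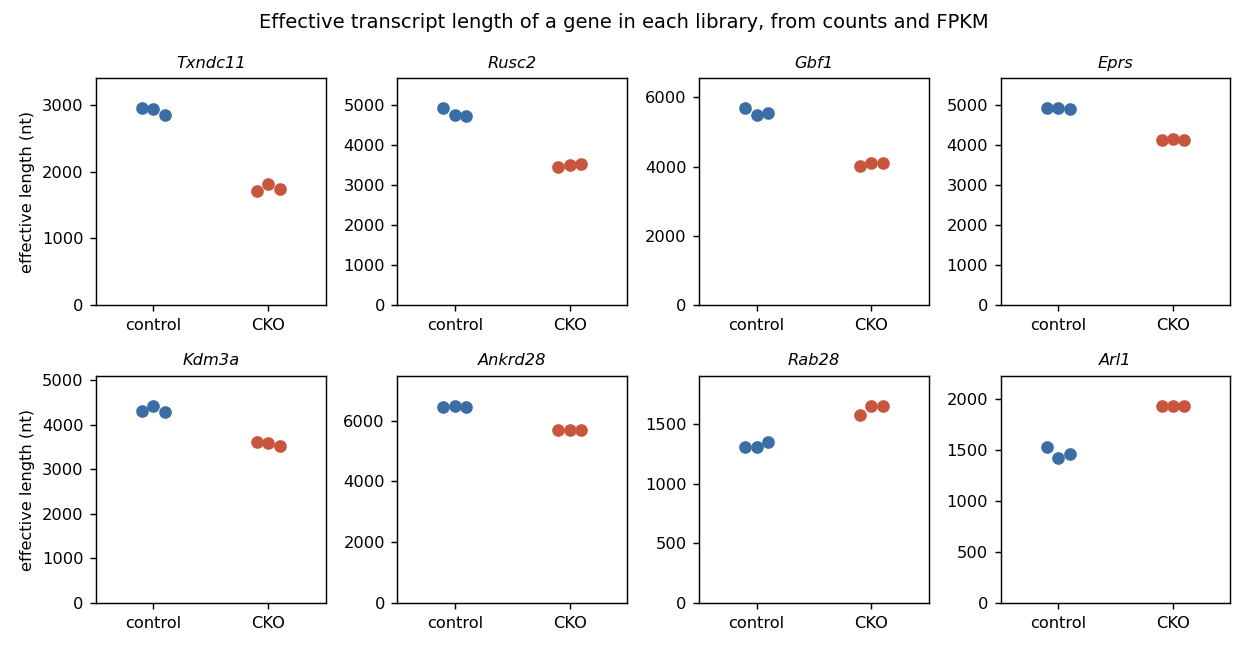
Effective transcript length in nt (vertical axis, linear, from 0) of 8 genes in the 3 control (blue) and 3 CKO (red) libraries, computed from counts, FPKM and library totals, 1 point per library. For 6 genes, Txndc11 among them, every CKO library is shorter than every control, and for Rab28 and Arl1 every CKO library is longer.

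Promoters were searched on both strands for the motif reported for DNA binding by mouse PEG3, which reads agt, a pair of open positions, c, 3 open positions and tggc. Of 27025 mouse genes with a RefSeq window, 347 held it (1.28%), as did 5 of the 593 genes tested with counts that had a window (0.843%). It was in 2 of 62 genes higher by both measures (3.23%) and 1 of 184 lower by both (0.543%). None of the 14 largest rises and falls with a window, Col16a1 included, held it. A match is a description of the letters and not a binding site. The windows of the 3 genes, read in the direction of the gene and with the match in capitals, are shown because they are the only ones among the genes called the same way by both measures.

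Ndufb11: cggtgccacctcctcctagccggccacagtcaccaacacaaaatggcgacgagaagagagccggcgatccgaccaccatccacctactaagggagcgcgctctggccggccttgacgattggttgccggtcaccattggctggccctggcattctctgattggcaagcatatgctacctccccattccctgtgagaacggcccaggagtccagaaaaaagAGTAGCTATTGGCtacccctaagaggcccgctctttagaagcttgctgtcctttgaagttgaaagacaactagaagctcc
Ticam1: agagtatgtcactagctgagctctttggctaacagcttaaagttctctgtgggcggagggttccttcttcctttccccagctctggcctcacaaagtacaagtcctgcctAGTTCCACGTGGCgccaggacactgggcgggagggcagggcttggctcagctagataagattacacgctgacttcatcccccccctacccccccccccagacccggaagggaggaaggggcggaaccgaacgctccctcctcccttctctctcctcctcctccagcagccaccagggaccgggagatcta
Akna: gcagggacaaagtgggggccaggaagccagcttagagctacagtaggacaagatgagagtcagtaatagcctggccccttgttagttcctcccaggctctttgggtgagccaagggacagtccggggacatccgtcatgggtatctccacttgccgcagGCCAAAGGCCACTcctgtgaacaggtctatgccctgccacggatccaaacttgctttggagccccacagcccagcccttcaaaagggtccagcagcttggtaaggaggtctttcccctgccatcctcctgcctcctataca

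The Ndufb11 window is chrX:20617570-20617869, minus strand, and the match begins at position -30 from the annotated start. The Ticam1 window is chr17:56276718-56277017, minus strand, with the match at -140, and the Akna window is chr4:63402554-63402853, minus strand, with the match on the opposite strand at -91 (build GRCm38.p6). Ndufb11 rose, as given above. Ticam1, the adaptor of Toll-like receptor 3 signalling, had counts of 1002, 942 and 1047 in the control libraries and 1790, 1553 and 1592 in the CKO libraries. It changed by 1.01 (SE 0.10, adjusted p = 0.000125) by counts and 0.26 (SE 0.08, adjusted p = 0.0191) by TPM, with the TPM call lost without control replicate 2 (adjusted p = 0.0745). Akna, which encodes an AT-hook protein of centrosomes and microtubules, had counts of 557, 608 and 556 in the control libraries and 174, 276 and 234 in the CKO libraries. It changed by -1.06 (SE 0.14, adjusted p = 0.000584) by counts and -1.51 (SE 0.15, adjusted p = 0.000152) by TPM. Ticam1 and Akna were named after their values were seen.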

How the data were processed

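RNA was measured in 3 control and 3 CKO libraries of cardiac fibroblasts. Each library has, per the file headers, a column of read counts, one of FPKM and one of TPM. The deposited counts are expected counts, mostly not whole, and were rounded before any test. TPM as deposited sums over the transcripts of the library, and FPKM as deposited is per fragment mapped and per length of transcript. Bowtie2, RSEM, DESeq2 and GRCm38 are named in the submitters' processing notes, with no versions; strand settings are not given in the sources used here. The table was held in part: 1293 genes, of which 82 had blank values in these libraries. Of 33 value columns 18 were used, and 15, of the other 5 libraries, were not.

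The members and lists were chosen with earlier results of these data known. Counts were tested with edgeR 4.0.16 in R 4.3.3 (TMM, filterByExpr, quasi-likelihood F test, 2-sided). TPM was tested with limma 3.58.1 on log2(TPM + 1) for genes with TPM of at least 1 in 3 or more libraries of any group. p-values were adjusted by Benjamini-Hochberg over all tested genes. Library totals and effective lengths were recovered from counts and FPKM. Alternatives were DESeq2 1.42.0, library totals as the scaling, loess length offsets (span 0.5), FPKM, a pseudocount of 0.1, no filters, the replicate number as a block, and each library left out in turn. The steps were tested on simulated data.

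The text names the 8 highest and 8 lowest changes called by both measures with no overlap between groups and a mean count of at least 50, ranked by the smaller change, the 8 genes of highest TPM called in opposite directions, and up to 3 members of each of 31 lists, predicted gene names left out. Some genes that this rule names are not reported here. A further 19 genes were named after their values were seen. In 2 lists, proteoglycans and collagen processing, no member was tested. The 31 lists and 8 marker lists matched symbols in the table. Positions, overlaps and promoters are RefSeq's (GRCm38.p6), which held 1193 of the gene IDs and a promoter window for 918. Replicates were not treated as pairs.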

Additional observations from a re-analysis of the deposited data

How the results depend on the processing

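Depth by the recovered totals was even, at 20239133 to 20532496 reads a library, and limits only genes with low counts. With 3 libraries a group, no exact test over libraries can pass 0.05. The scaling set the balance of calls: counts gave 245 higher and 255 lower, library totals gave 169 higher (22.1%) and 335 lower (43.7%), the length offsets gave 274 and 170, and TPM gave 88 and 443. FPKM in place of TPM gave 160 higher and 271 lower. The median change was -0.03 by counts, -0.29 by library totals, 0.14 with length removed, -0.61 by TPM and -0.19 by FPKM. DESeq2 called 487 genes by counts (247 higher, 240 lower), and no filter gave 486 by counts and 610 by TPM; a pseudocount of 0.1 gave 518. Leaving out each library in turn gave 441 to 520 calls by counts (220 to 256 higher, 221 to 264 lower) and 486 to 551 by TPM (77 to 91 higher, 409 to 460 lower). No named gene changed direction where it was called in the full or the reduced fit. The signs of named genes called in neither fit were not compared. With each library left out, the difference in mean transcript length ranged from -630.28 to -562.71 nt.

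Some genes changed sign with the scaling, and the cause was not tested. Those listed were called in the main fit (TMM counts or TPM), in the alternative fit, or in both. Called in both, in opposite directions, were Ly6c2, Med21 and Ahnak2 with length removed, and Rars, Mrpl10 and Mthfsl by FPKM. Every other gene listed was called in a single fit of the pair, and several of the values lie near 0. With library totals, counts gave -0.063 for Rpn1, -0.027 for Osbpl9, -0.068 for Ssr1, -0.20 for Dnajc3, -0.22 for Prkaa1 and -0.27 for Yars. With length removed, counts gave -0.36 for Ly6c2, 0.30 for Ltbp4, 0.12 for Acaca, 0.41 for Prkab2, -0.0115 for Taf9, -0.46 for Med21, -0.068 for U2af1, 0.53 for Gbp6, 0.69 for Ahnak2, 0.14 for Synpo, 0.56 for Zfp729b, 0.45 for Slc39a6 and 0.45 for Xpo1. FPKM gave 0.19 for Rars, 0.16 for Ly6c2, 0.067 for Psat1, 0.12 for Fermt3, 0.079 for Osbpl9, 0.16 for Vps37c, 0.23 for Mrpl10, 0.20 for Mthfsl, 0.20 for Prmt9, 0.41 for U2af1, 0.43 for Otub1, 0.41 for Arl1 and 0.27 for Txndc11.

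The replicate numbers share no stated animal or day, so the libraries were not treated as pairs. Deviations of same-numbered libraries correlated at 0.0974, 0.0242 and 0.229. With the replicate number as a block, 480 genes were called by counts (235 higher, 245 lower) and 516 by TPM (87 higher, 429 lower). Control replicates 1 and 3 correlated best with the CKO library of their own number, and control replicate 2 with CKO replicate 1 (0.0567). These values do not settle whether the numbers pair the libraries.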
